A study of Mus musculus with 32 samples.

Results

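The genes described here are those of the MHC class II presentation machinery and its invariant chain in fluorescence-sorted microglia of the mouse spinal cord. They were chosen by name, as H2-Aa, H2-Ab1, H2-Eb1, Cd74, H2-DMa, H2-DMb1, H2-Oa and Ciita, and their transcripts were summed to 1 count per gene. Of these 8 genes, 7 were listed in the female table among 13377 genes and the same 7 in the male table among 11999 genes. Together the 2 tables hold 13704 different genes. Ciita was listed in neither table and was not analysed here.

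The series asks how microglia that return to the cord after a transient depletion differ from those that were never depleted, with and without fracture. All 32 libraries, 15 female and 17 male, were labelled day 14 and carried 1 genotype label, Cx3Cr1-Cre;Rosa26-iDTR, in which tamoxifen lets Cx3cr1-expressing cells make a diphtheria toxin receptor and the toxin then removes them. Cx3cr1 is also active in blood monocytes and in macrophages at the borders of the nervous system. The label depleted is written here as repopulated, and the label not depleted as resident. In females, 3 repopulated and 4 resident libraries had no fracture, and 4 of each state had one. In males, 2 repopulated and 3 resident libraries had no fracture, and 7 repopulated and 5 resident libraries had one. The sample descriptions call resident libraries wild type, while their genotype label matches that of repopulated ones, so an effect of repopulation and one of genotype or of the toxin cannot be told apart. Female and male libraries were made with different kits, so sex and kit are the same split and each table was analysed apart. The labels do not say that each library came from its own animal, and the age of the mice is not given in the sources used here. P-values therefore reflect only the spread of these libraries, part of which may be technical.

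MHC class II molecules hold peptides from engulfed material on the cell surface for recognition by CD4 T cells. H2-Aa and H2-Ab1 encode the alpha and beta chains of the mouse molecule I-A, and H2-Eb1 encodes the beta chain of I-E. Cd74, the invariant chain, plugs the peptide groove of newly made molecules and steers them to endosomes. There H2-DM, made of the H2-DMa and H2-DMb1 chains, swaps the remaining invariant chain fragment for other peptides, and H2-O, whose alpha chain is H2-Oa, holds H2-DM back. Resting microglia are known for little class II on their surface, which can increase after activation. Class II promoters share an X box bound by the RFX complex and a Y box bound by NF-Y, on which the coactivator CIITA assembles.

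The members lie close together on chromosome 17 of GRCm38, apart from Cd74 and Ciita. In the GENCODE M21 annotation H2-Oa spans 17:34092340-34095234, H2-DMa 17:34119541-34139101, H2-DMb1 17:34153072-34160230, H2-Ab1 17:34257689-34269419 and H2-Eb1 17:34305867-34316674, all on the plus strand, while H2-Aa spans 17:34282744-34287823 on the minus strand. RefSeq promoter windows on GRCm38.p6, 300 bases each from 250 before to 50 after the annotated start, were matched for 5 of the 8 members. The 80 bases at positions -110 to -31 are shown for the 4 members with a match to either box, because genes with these boxes and with unlike levels in these libraries can be compared in them. Capitals mark the X box core AACTGAT and the Y box core TGATTGG, each searched on both strands, with letters chosen after the sequences had been seen.
H2-Aa promoter, chr17:34287854-34287933, minus strand: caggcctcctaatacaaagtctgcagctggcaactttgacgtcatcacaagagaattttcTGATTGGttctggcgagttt
H2-Eb1 promoter, chr17:34305757-34305836, plus strand: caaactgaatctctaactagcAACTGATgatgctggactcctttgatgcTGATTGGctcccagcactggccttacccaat
H2-Oa promoter, chr17:34092269-34092348, plus strand: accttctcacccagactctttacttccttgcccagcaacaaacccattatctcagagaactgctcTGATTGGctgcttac
H2-DMb1 promoter, chr17:34153081-34153160, plus strand: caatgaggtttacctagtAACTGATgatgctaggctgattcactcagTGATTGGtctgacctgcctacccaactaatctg
H2-Eb1 and H2-DMb1 held both cores, the X core starting at -89 and the Y core at -61 in H2-Eb1, and at -92 and -63 in H2-DMb1. Positions count from the RefSeq start, which in H2-DMb1 and H2-Oa lies downstream of the GENCODE start. All printed H2-DMb1 bases and the last printed H2-Oa bases therefore lie within the annotated genes. Their positions are not like for like with those of H2-Eb1 and H2-Aa. Of the 2 cores H2-Aa and H2-Oa held the Y core alone, starting at -50 and -45. An X box with other letters would be missed by this exact search. Of 32851 windows of the same length, 2.43% held the X core, 7.82% the Y core and 0.259% both. These letters were not in the H2-DMa windows, whose start is not that of the transcript holding most H2-DMa counts. A match is a description of letters and not evidence of a bound site. The pair with both cores did not move alike: H2-Eb1 was among the most variable members and H2-DMb1 among the steadiest.

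Library totals ran from 16438827 to 18654165 counts in the female table and from 5722993 to 33697535 in the male table, and the deposited tables list transcripts with at least 10 counts in at least 8 female or 9 male libraries. All 9 microglial markers checked, among them Tmem119 and P2ry12, were listed, and their summed level was between 29590 and 52240 CPM (normalised counts, scaled by library size and the trimmed mean of M values). The fewest counts behind a member were 33 for H2-Eb1 and 44 for H2-Aa in females and 39 and 34 in males, so these genes are the least precisely measured of the 7. H2-DMa rested on 3160 counts or more. In 2 libraries labelled resident, H2-Aa, H2-Ab1 and H2-Eb1 stood far above the rest of their group, with Cd74 in the male one, while H2-DMa, H2-DMb1 and H2-Oa did not stand apart. They are female resident without fracture replicate 3 and male resident with fracture replicate 4, and results that change call without them are also given without them.

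Levels can be compared between genes only per transcript length, as TPM over the listed transcripts. H2-DMa had the highest median, 779 TPM in the female table (730 to 926) and 892 TPM in the male table (707 to 993). Cd74 had 273 TPM (107 to 672) and 382 TPM (161 to 834), and H2-DMb1 had 295 TPM (250 to 375) and 343 TPM (242 to 380), so their ranges overlapped in both tables. H2-Ab1, at 128 TPM (55.3 to 294) in females and 127 TPM (48.3 to 298) in males, overlapped with H2-Oa at 105 TPM (74.3 to 155) and 123 TPM (87.1 to 160). H2-Aa was lower, with 24.0 TPM (4.61 to 89.4) and 29.6 TPM (5.29 to 97.0), and H2-Eb1 lowest, with 12.4 TPM (2.99 to 54.2) and 22.0 TPM (4.52 to 81.5). The alpha and beta chains of I-A thus differed in median level although they form 1 molecule. Both chains of H2-DM held a narrow range, whereas H2-Aa and H2-Eb1 were low and spread widely.

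H2-Aa and H2-Ab1 are each represented by 1 transcript. Cd74 lies on chromosome 18 (18:60803848-60812652, plus strand). Its transcript Cd74-201 of 215 codons held 80.5% of the counts in females and 79.3% in males, and Cd74-202 of 279 codons held 19.5% and 20.7%. The longer form took a mean share of 18.2% ± 2.07 in repopulated and 20.7% ± 5.89 in resident female libraries without fracture (SD, n = 3 and 4), and 21.5% ± 0.830 and 18.9% ± 1.70 with fracture (SD, n = 4 each). In males it took 18.8% ± 3.58 in repopulated and 24.2% ± 3.63 in resident libraries without fracture (SD, n = 2 and 3), and 21.4% ± 3.43 and 19.8% ± 2.97 with fracture (SD, n = 7 and 5). The ranges of the repopulated and resident libraries overlapped in all 4 pairs. H2-Eb1 is uncertain, because its listed counts lie on the coding H2-Eb1-203 (33.5% in females, 44.3% in males), on the nonsense-mediated decay form H2-Eb1-205 (44.5% and 43.6%) and on retained-intron forms, and the other annotated coding transcript was not analysed here. H2-DMb1 has a closely related neighbour, H2-DMb2, and estimated counts divide shared reads between them.

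**Figure D1:**
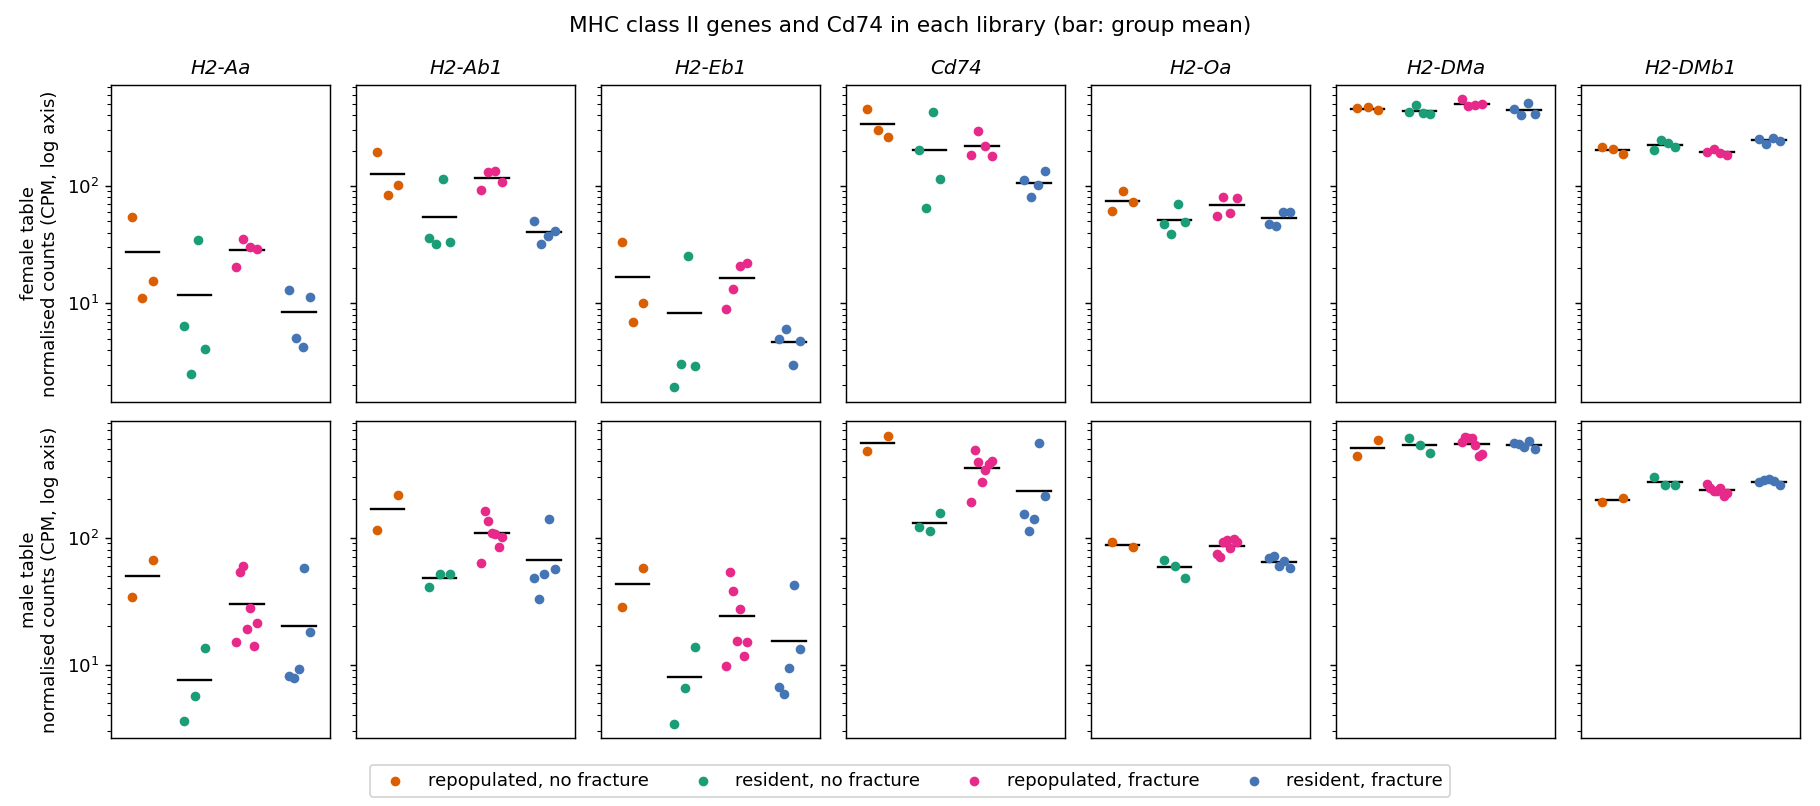
Normalised level of each member in every library (CPM, log axis), female table above and male table below, with groups in the order repopulated and resident without fracture, then repopulated and resident with fracture. Points are libraries and bars are group means. H2-Aa, H2-Ab1, H2-Eb1 and Cd74 spread widely, with 1 high resident library in each table, while H2-DMa stayed between 400 and 621 CPM.

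Repopulated and resident microglia were compared first without fracture. In females none of the 7 members passed the test, against 2.53% of all genes tested (338 of 13377), although H2-Ab1, H2-Aa, H2-Eb1 and Cd74 had positive fold changes. H2-Ab1 and H2-Oa had an unadjusted p below 0.05, as did 15.3% of all genes, and DESeq2 called 0 members. H2-Ab1 had 194, 83.2 and 101.9 CPM in repopulated libraries, against 36.1, 32.2, 115 and 33.7 CPM in resident libraries. A single resident library, replicate 3, lay within the repopulated range, and the other 3 lay below it. The log2 fold change of H2-Ab1 was 1.22 ± 0.43 (SE; adjusted p = 0.184, quasi-likelihood test of edgeR, adjusted over all genes by Benjamini-Hochberg, as for every later adjusted p).

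H2-Aa had 55.0, 11.1 and 15.6 CPM in female repopulated libraries without fracture, against 6.48, 2.50, 34.5 and 4.12 CPM in resident ones. H2-Eb1 had 33.7, 6.99 and 10.2 CPM in the repopulated libraries and 1.93, 3.07, 25.3 and 2.96 CPM in the resident ones. Cd74 had 454, 300 and 260 CPM in the repopulated libraries and 204, 65.4, 428 and 116 CPM in the resident ones. In all 3 genes repopulated replicate 1 was the highest library and resident replicate 3 the next, so the groups overlapped. The log2 fold changes were 1.19 ± 0.82 for H2-Aa (adjusted p = 0.56), 1.03 ± 0.80 for H2-Eb1 (adjusted p = 0.629) and 0.74 ± 0.49 for Cd74 (adjusted p = 0.548). Without resident replicate 3 the values were 2.64 for H2-Aa (adjusted p = 0.0316), 1.89 for H2-Ab1 (adjusted p = 0.00159) and 2.67 for H2-Eb1 (adjusted p = 0.0121), and H2-Oa at 0.72 also passed (adjusted p = 0.0373). Without repopulated replicate 1 the values were 0.16 for H2-Aa, 0.77 for H2-Ab1, 0.05 for H2-Eb1 and 0.46 for Cd74, and none passed. With both libraries left out, a choice made after their values were seen, H2-Ab1 at 1.44 (adjusted p = 0.00187) and H2-Oa at 0.84 (adjusted p = 0.0371) passed, while H2-Aa at 1.60 (adjusted p = 0.106), H2-Eb1 at 1.69 (adjusted p = 0.0517) and Cd74 at 1.12 (adjusted p = 0.194) did not.

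The accessory chains had smaller fold changes in the same female libraries. H2-Oa had 61.7, 91.0 and 73.1 CPM in repopulated libraries and 47.9, 39.0, 70.1 and 49.5 CPM in resident ones, with a log2 fold change of 0.54 ± 0.20 (adjusted p = 0.184). H2-DMa had 460, 470 and 444 CPM in repopulated libraries and 427, 490, 418 and 412 CPM in resident ones (0.07 ± 0.09, adjusted p = 0.791). H2-DMb1 had 215, 206 and 186 CPM in repopulated libraries and 204, 249, 232 and 217 CPM in resident ones (-0.16 ± 0.08, adjusted p = 0.381). All 3 genes overlapped between the groups, and the median log2 fold change of the 7 members was 0.735, against -0.0188 over all genes.

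With fracture, the female groups separated. H2-Aa, H2-Ab1, H2-Eb1 and Cd74 were higher in all 4 repopulated libraries than in any resident library, a separation that 6.26% of all genes showed in this direction. H2-Ab1 had 93.4, 131, 135 and 108 CPM in repopulated libraries with fracture and 50.7, 32.4, 37.8 and 41.0 CPM in resident ones. H2-Aa had 20.5, 35.2, 30.0 and 29.2 CPM in the repopulated libraries and 12.98, 5.03, 4.29 and 11.3 CPM in the resident ones. No library of either group stood apart here. H2-Eb1 had 8.89, 13.4, 20.9 and 22.3 CPM in the repopulated libraries and 5.01, 6.10, 2.98 and 4.78 CPM in the resident ones. Cd74 had 185, 295, 219 and 180 CPM in the repopulated libraries and 112, 80.2, 103 and 133 CPM in the resident ones.

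None of these 4 genes passed in the fit that shares 1 estimate of spread over all 4 female groups. The log2 fold changes were 1.53 ± 0.41 for H2-Ab1 (adjusted p = 0.0783), 1.77 ± 0.78 for H2-Aa (adjusted p = 0.336), 1.79 ± 0.78 for H2-Eb1 (adjusted p = 0.321) and 1.04 ± 0.46 for Cd74 (adjusted p = 0.344), which is 2.05 to 3.46 fold. In a fit of the fracture groups alone, all 4 passed with nearly the same fold changes, at adjusted p = 0.000347 for H2-Ab1, 0.0197 for H2-Aa, 0.00933 for H2-Eb1 and 0.0188 for Cd74. That fit leaves out the spread of the groups without fracture, which hold the high library. In the shared fit without resident no-fracture replicate 3, H2-Ab1 (adjusted p = 0.00399) and H2-Eb1 (adjusted p = 0.0475) passed.

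H2-DMb1 went the other way, and it was the single member called in the female fracture libraries, where 2.35% of all genes were called. It had 195, 206, 192 and 184 CPM in repopulated libraries and 251, 227, 259 and 241 CPM in resident ones, with no overlap, as 5.64% of all genes in this direction. The log2 fold change was -0.33 ± 0.07 (adjusted p = 0.0282). The call was lost, with values from -0.34 to -0.31, without resident fracture replicate 1 (adjusted p = 0.0827), 3 (0.0923) or 4 (0.0634), and without repopulated fracture replicate 1 (0.0634), 3 (0.0632) or 4 (0.069). H2-DMa, its partner chain, had 548, 481, 487 and 500 CPM in repopulated libraries and 457, 400, 515 and 409 CPM in resident ones (0.18 ± 0.08, adjusted p = 0.335). H2-Oa had 55.3, 80.8, 59.1 and 79.8 CPM in repopulated libraries and 47.2, 46.1, 60.7 and 60.5 CPM in resident ones (0.36 ± 0.19, adjusted p = 0.435). Both overlapped between groups.

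In males without fracture 4 of the 7 members passed, against 7.42% of all genes (890 of 11999), and this comparison rests on 2 repopulated libraries. H2-Ab1 had 116 and 218 CPM in repopulated libraries and 41.1, 51.7 and 51.8 CPM in resident ones. Cd74 had 481 and 634 CPM in the repopulated libraries and 122, 112 and 156 CPM in the resident ones. Both repopulated libraries lay above all resident ones, and H2-Ab1 rose by a log2 fold change of 1.80 ± 0.50 (adjusted p = 0.0384) and Cd74 by 2.10 ± 0.55 (adjusted p = 0.0327). H2-Aa had 33.9 and 66.1 CPM in the repopulated libraries and 3.59, 5.71 and 13.6 CPM in the resident ones. H2-Eb1 had 28.5 and 58.0 CPM in the repopulated libraries and 3.43, 6.55 and 13.8 CPM in the resident ones. These had the largest fold changes of the members, 2.68 ± 0.90 for H2-Aa and 2.43 ± 0.88 for H2-Eb1, but did not pass (adjusted p = 0.0984 and 0.13). Both passed in a fit of the 2 groups without fracture alone, at 2.7 (adjusted p = 0.0159) and 2.45 (0.0257), and in the shared fit without resident fracture replicate 4, at 2.704 (0.0161) and 2.45 (0.0333).

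H2-Oa rose and H2-DMb1 fell in the same male libraries. H2-Oa had 92.0 and 83.8 CPM in repopulated libraries and 67.2, 60.3 and 47.9 CPM in resident ones (0.59 ± 0.16, adjusted p = 0.0293). H2-DMb1 had 191 and 205 CPM in repopulated libraries and 301, 258 and 262 CPM in resident ones (-0.46 ± 0.10, adjusted p = 0.00569). H2-DMa had 437 and 585 CPM in repopulated libraries and 604, 531 and 461 CPM in resident ones, an overlap (-0.06 ± 0.15, adjusted p = 0.907). In all, 5 members were higher and 1 lower in every repopulated library than in every resident one, where 17% and 18.4% of all genes showed such a separation. With so few libraries it is common, so these counts carry little weight.

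Each of these male calls depended on single libraries, of which a left-out repopulated one leaves 1 library that is assumed to vary like the other groups. H2-Ab1 had 1.27 without repopulated replicate 2 (adjusted p = 0.372), 1.69 without resident replicate 1 (0.125), 1.86 without resident replicate 2 (0.0864), 1.87 without resident replicate 3 (0.0925) and 1.80 without repopulated fracture replicate 4 (0.0516). Cd74 had 1.88 without repopulated replicate 2 (0.199), 2.28 without repopulated replicate 1 (0.0709), 2.05 without resident replicate 1 (0.101), 2.02 without resident replicate 2 (0.0998) and 2.26 without resident replicate 3 (0.0668). Their direction held in every such fit. H2-Oa was lost without repopulated replicate 1 (0.52, 0.176) or 2 (0.66, 0.0969) and without resident replicate 2 (0.63, 0.053) or 3 (0.48, 0.119), while H2-DMb1 was lost, among the fits with 1 library left out, without repopulated replicate 1 (-0.41, 0.0751). In a fit of the 2 groups without fracture alone, H2-DMb1 (-0.45, 0.0797) and H2-Oa (0.61, 0.0987) did not pass, while H2-Ab1 (0.00164) and Cd74 (4.68e-05) did. With library totals as the only scaling, which moved the median of all genes to -0.12, H2-Oa had 0.50 (adjusted p = 0.0612).

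In males with fracture the classical chains overlapped between the groups. H2-Ab1 had a lowest, median and highest level of 63.6, 107 and 163 CPM in 7 repopulated libraries, against 47.8, 32.7, 52.1, 141 and 57.0 CPM in the 5 resident libraries. H2-Aa had 14.1, 21.4 and 59.5 CPM as lowest, median and highest in the repopulated libraries, against 8.17, 7.79, 9.29, 57.5 and 18.0 CPM in the resident ones. Resident replicate 4 lay among the highest libraries of the whole table, while the other 4 resident libraries lay below all repopulated ones for H2-Ab1, and 3 of them did for H2-Aa. Cd74 had 192, 381 and 492 CPM as lowest, median and highest in the repopulated libraries, against 154, 113, 139, 551 and 213 CPM in the resident ones. H2-Eb1 had 9.69, 15.3 and 53.6 CPM in the same order, against 6.65, 5.90, 9.44, 42.0 and 13.4 CPM in the resident ones. None of the 4 passed, with log2 fold changes of 0.73 ± 0.33 for H2-Ab1 (adjusted p = 0.284), 0.59 ± 0.58 for H2-Aa (0.732), 0.60 ± 0.36 for Cd74 (0.489) and 0.66 ± 0.57 for H2-Eb1 (0.674). Without resident replicate 4, H2-Ab1 at 1.22 (adjusted p = 0.00466) and Cd74 at 1.20 (adjusted p = 0.0064) passed, while H2-Aa at 1.498 (adjusted p = 0.0936) and H2-Eb1 at 1.48 (adjusted p = 0.114) did not.

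H2-Oa was the single member called in the male fracture libraries, where 4.91% of all genes were called. It had 70.6, 92.7 and 96.7 CPM as lowest, median and highest in repopulated libraries, against 69.4, 71.5, 60.1, 64.9 and 57.4 CPM in resident ones. The groups overlapped by 1 library on each side, and the log2 fold change was 0.42 ± 0.11 (adjusted p = 0.0235). The call was lost without resident replicate 3 (0.39, adjusted p = 0.0703) or 5 (0.39, 0.0711) or repopulated replicate 6 (0.39, 0.0522). H2-DMb1 had 212, 233 and 266 CPM as lowest, median and highest in repopulated libraries, against 273, 282, 287, 278 and 260 CPM in resident ones, an overlap of 1 library on each side (-0.22 ± 0.06, adjusted p = 0.0512). It passed without repopulated replicate 1 (-0.25, adjusted p = 0.0199), without resident no-fracture replicate 1 (-0.22, 0.0401) and with library totals as the only scaling (-0.26, 0.0146). H2-DMa had 440, 564 and 621 CPM in repopulated libraries, against 552, 540, 520, 577 and 502 CPM in resident ones (0.02 ± 0.09, adjusted p = 0.949).

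The male titles carry a V number, whose meaning the labels do not give, and the fracture libraries fall into 2 runs of it. In V64 to V69, with 3 repopulated and 3 resident libraries, the log2 fold changes were 2.34 ± 0.43 for H2-Aa, 1.46 ± 0.30 for H2-Ab1, 2.20 ± 0.51 for H2-Eb1 and 1.41 ± 0.32 for Cd74. In V99 to V110, with 4 repopulated and 2 resident libraries, they were -0.87 ± 0.40, 0.02 ± 0.29, -0.68 ± 0.44 and -0.13 ± 0.34 for the same genes. The classical chains and Cd74 therefore did not hold their difference in V99 to V110, where the high resident replicate 4 is 1 of the 2 resident libraries. H2-Oa had 0.24 ± 0.15 in V64 to V69 and 0.59 ± 0.14 in V99 to V110, and H2-DMb1 had -0.17 ± 0.08 and -0.23 ± 0.10, so these kept their directions. No member passed within a run (adjusted p from 0.0519 to 0.994). The libraries without fracture carry V71 to V79 only.

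**Figure D2:**
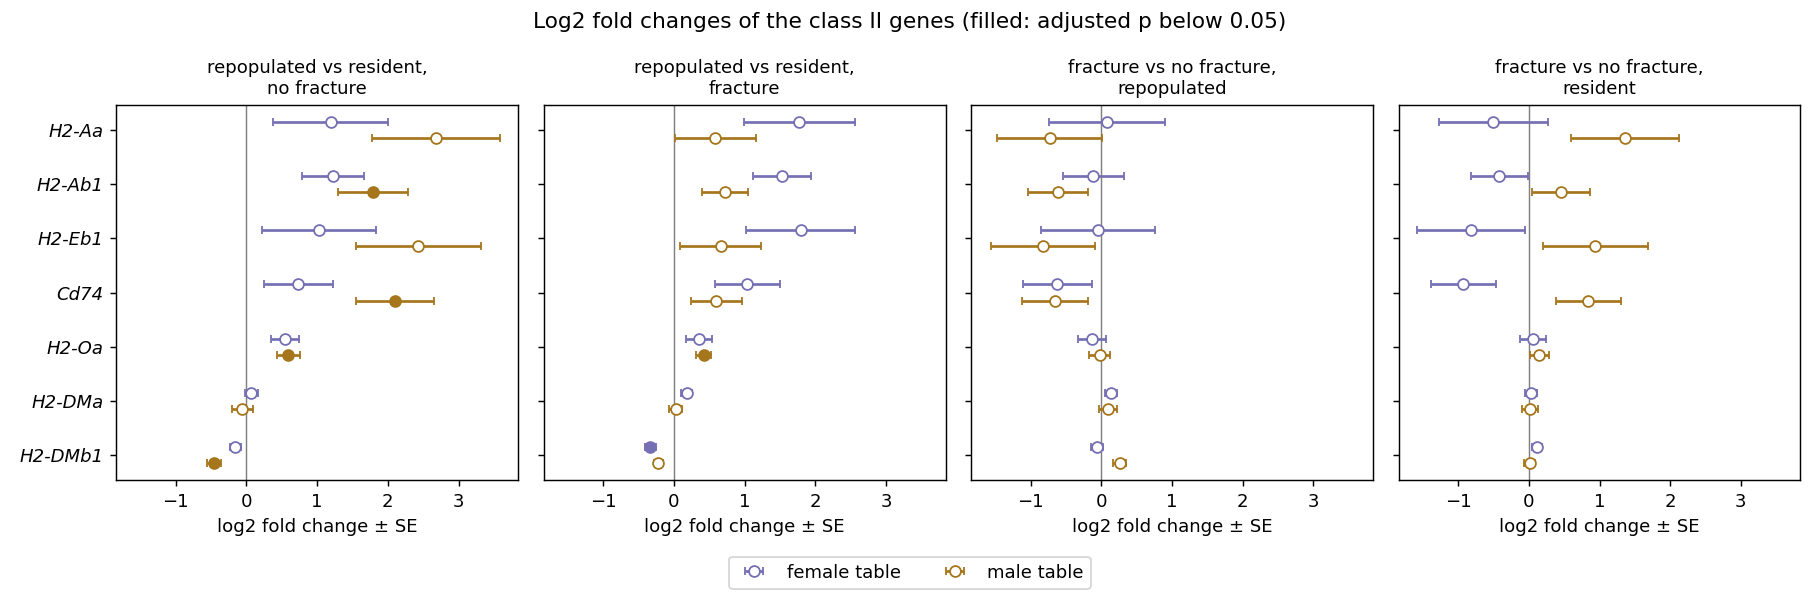
Log2 fold change with its SE for each member in 4 comparisons, female table in purple and male table in brown. Filled points passed an adjusted p of 0.05. H2-Aa, H2-Ab1, H2-Eb1 and Cd74 lay above 0 in repopulated against resident microglia in both tables with wide errors, H2-Oa lay above 0 with narrow errors, H2-DMb1 lay below 0, and no point was filled for fracture.

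**Figure D3:**
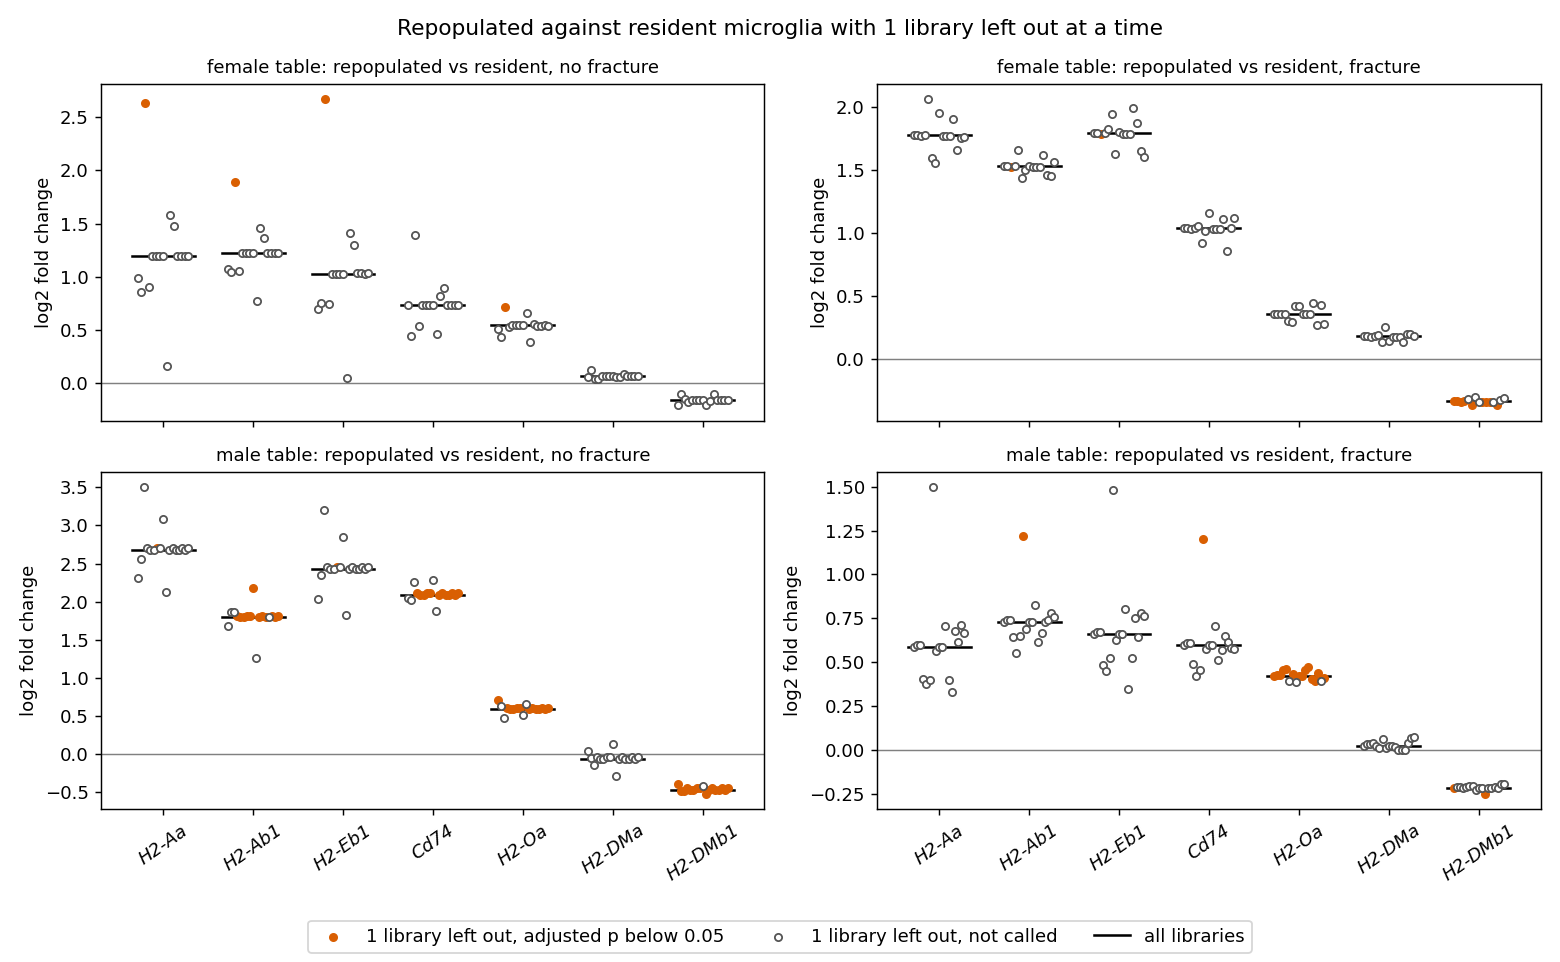
Log2 fold change of repopulated against resident microglia for each member, with all libraries (black line) and with 1 library left out at a time (points, filled orange where the adjusted p was below 0.05). The single point far above the others in H2-Aa, H2-Ab1 and H2-Eb1 of the female table without fracture is the fit without resident replicate 3, and that in the male table with fracture is the fit without resident replicate 4.

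Fracture was compared with no fracture within each cell state. No member passed in any of the 4 comparisons, where 0% of genes were called in both female comparisons (0 of 13377) and 0.00833% in both male ones (1 of 11999). At an unadjusted p below 0.05 there were 1410 genes in repopulated (10.5%) and 659 in resident female libraries (4.93%), and 995 (8.29%) and 511 (4.26%) in male ones, and DESeq2 called 90 and 4 genes in females and 58 and 12 in males, with 0 members among them. Among the members only H2-DMb1 in male repopulated libraries had an unadjusted p below 0.05, with 212, 233 and 266 CPM as lowest, median and highest with fracture, against 191 and 205 CPM without. All fracture libraries lay above the others, as in 3.57% of all genes (0.26 ± 0.09, adjusted p = 0.427). H2-DMa in female repopulated libraries also separated, with 548, 481, 487 and 500 CPM with fracture and 460, 470 and 444 CPM without, as 6.81% of all genes did (0.14 ± 0.09, adjusted p = 0.599).

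For the 4 most variable members the fracture estimates had opposite signs in the resident groups of the 2 tables, and neither passed. In female resident libraries Cd74 had a log2 fold change of -0.93 ± 0.46 (adjusted p = 0.94) and H2-Aa of -0.50 ± 0.77 (0.956), and in male resident libraries Cd74 had 0.84 ± 0.46 (1) and H2-Aa 1.36 ± 0.77 (1). The high library is in the group without fracture in females and with fracture in males. Without it, the female values were -0.26 for Cd74, 0.94 for H2-Aa, 0.26 for H2-Ab1 and 0.84 for H2-Eb1, and the male values 0.25, 0.47, -0.018 and 0.14 in the same order. In repopulated libraries the values were -0.62 ± 0.49 for Cd74 and 0.08 ± 0.82 for H2-Aa in females, and -0.66 ± 0.47 and -0.73 ± 0.74 in males. Whether repopulation acted differently with and without fracture was tested by the interaction, which called no member in either table, where 0% and 0.00833% of all genes were called. Its largest member value was -2.09 ± 1.06 for H2-Aa in males (adjusted p = 0.718), followed by -1.77 ± 1.04 for H2-Eb1 (0.752) and -1.50 ± 0.65 for Cd74 (0.64). Without resident fracture replicate 4 these were -1.21, -0.97 and -0.91. The interaction had an unadjusted p below 0.05 for 0 members in females, against 3.69% of all genes, and for 1 in males (Cd74), against 7.38%, and DESeq2 called 0 members in both. In females the values ran from -0.19 ± 0.27 for H2-Oa to 0.77 ± 1.11 for H2-Eb1. The difference between the sexes was not tested, because the tables were processed apart.

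H2-Aa, H2-Ab1, H2-Eb1 and Cd74 varied together between libraries of 1 group. Log2 levels were taken as deviations from their group means, and the correlations below are descriptions over 15 female or 17 male libraries that share depth and scaling. H2-Aa and H2-Ab1, the 2 chains of I-A, had r = 0.943 in females and 0.88 in males. H2-Aa and H2-Eb1 had r = 0.827 and 0.976, and H2-Ab1 and Cd74 had r = 0.819 and 0.894. Without the 2 libraries farthest out, the same pairs had r = 0.842 and 0.765, 0.497 and 0.965, and 0.606 and 0.757. H2-Eb1 and Cd74 in females had r = 0.606, and 0.0588 without those libraries, so that relation rests on them.

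H2-DMa, H2-DMb1 and H2-Oa did not follow that set. With the mean of H2-Aa, H2-Ab1, H2-Eb1 and Cd74, H2-DMa had r = -0.359 in females and 0.253 in males, H2-DMb1 had 0.167 and -0.118, and H2-Oa had 0.381 and -0.367. The chains of H2-DM varied together, with r = 0.575 in females and 0.65 in males, even though their difference between repopulated and resident groups was unlike. H2-DMb1 and H2-Oa, whose group differences ran in opposite directions, had r = -0.00777 and -0.238 within groups. H2-Oa and Cd74 had r = 0.572 in females (0.523 without the 2 libraries farthest out) and -0.132 in males.

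**Figure D4:**
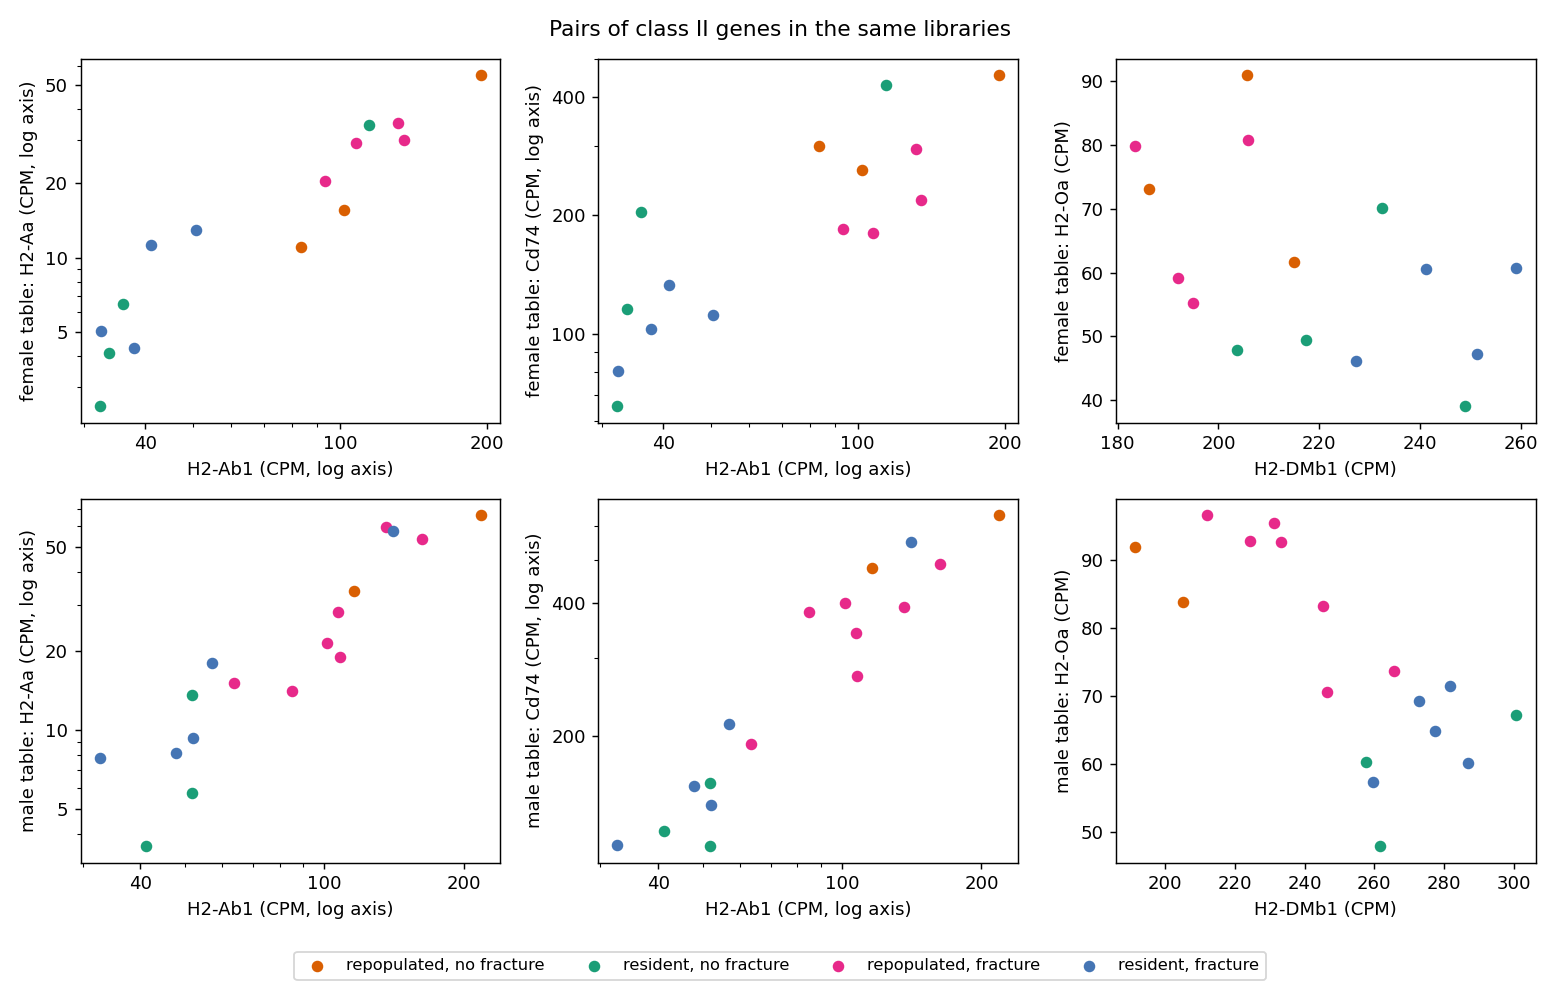
Levels of pairs of members in the same libraries (CPM), female table above and male table below, with H2-Aa and Cd74 against H2-Ab1 on log axes and H2-Oa against H2-DMb1 on linear axes. Points are libraries coloured by group. H2-Aa and Cd74 climb with H2-Ab1 across all groups, and 1 high resident library of each table sits with the repopulated ones, while in the right-hand panels the repopulated libraries lie to the upper left of most resident ones.

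The opposite movement of H2-Oa and H2-DMb1 can be read as a difference within each library, which no scaling alters. The level of H2-Oa minus that of H2-DMb1 on the log2 scale was -1.44 ± 0.32 in repopulated and -2.15 ± 0.39 in resident female libraries without fracture (SD, n = 3 and 4), and -1.52 ± 0.29 and -2.20 ± 0.19 with fracture (SD, n = 4 each). In males it was -1.17 ± 0.17 in repopulated and -2.23 ± 0.19 in resident libraries without fracture (SD, n = 2 and 3), and -1.46 ± 0.28 and -2.09 ± 0.12 with fracture (SD, n = 7 and 5). With fracture the repopulated libraries ran from -1.82 to -1.20 in females and from -1.85 to -1.13 in males, against -2.41 to -1.99 and -2.25 to -1.97 in the resident ones, without overlap. Without fracture the female groups overlapped, at -1.80 to -1.18 in repopulated and -2.67 to -1.73 in resident libraries, and the male ones did not, at -1.29 to -1.06 against -2.45 to -2.09. This difference was chosen after the single genes had been seen and is given without a test. How many other pairs of genes separate in this way was not counted. Among single genes in males without fracture, 17% lay higher and 18.4% lower without overlap.

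H2-DMa and H2-DMb1, which form 1 molecule, were compared in the same way, also without a test. H2-DMa minus H2-DMb1 was 1.18 ± 0.08 in repopulated and 0.95 ± 0.09 in resident female libraries without fracture, and 1.38 ± 0.12 and 0.86 ± 0.10 with fracture (SD, n = 3, 4, 4 and 4). In males it was 1.35 ± 0.23 in repopulated and 0.96 ± 0.12 in resident libraries without fracture, and 1.20 ± 0.16 and 0.96 ± 0.08 with fracture (SD, n = 2, 3, 7 and 5). In males with fracture the groups overlapped, at 1.02 to 1.39 in repopulated and 0.857 to 1.05 in resident libraries, and in the other 3 pairs they did not. For this pair too, the share of other gene pairs without overlap was not counted. A ratio within a library shows unequal change and not which gene changed.

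The genes whose deviations were most like those of the mean of H2-Aa, H2-Ab1, H2-Eb1 and Cd74 were listed by correlation, over 9269 female and 9081 male genes with a mean of at least 5 CPM. In females they began with Slc11a1, a metal ion transporter of phagosomes, at r = 0.926, followed by Man2b2 (0.878), Cst7, which encodes the protease inhibitor cystatin F, (0.862), Snap23 (0.86) and Arid5b (0.858). Lyst (0.852), Arhgap15 (0.849), Lyz2 (0.844), Adgrg5 (0.844) and Itm2b (0.837) completed the 10. In males they were Sema4a (0.833), Pla2g7 (0.799), Fnta (0.797), Ttc13 (0.79), Lyz2 (0.785), Lrrc8c (0.785), Clp1 (0.779), Cacybp (0.768), Uimc1 (0.757) and Tmem120a (0.756). Lyz2, which encodes lysozyme M of macrophages and monocytes, was the single gene in both lists. Without the 2 libraries farthest out, Slc11a1 had r = 0.76, Sema4a 0.824 and Lyz2 0.583 in females and 0.713 in males.

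Of 31 further genes of the class II pathway, 30 were listed in each table. Without fracture 6 rose and 0 fell in repopulated against resident female microglia, where 1.56% of all genes rose and 0.964% fell. In males 11 rose and 1 fell, where 4.7% of all genes rose and 2.72% fell, and the list had median log2 fold changes of 0.0981 and 0.145 in the 2 tables, against -0.0188 and -0.0279 over all genes. With fracture 6 rose and 0 fell in females, where 1.27% of all genes rose and 1.08% fell, and 7 rose and 1 fell in males, where 3.03% rose and 1.88% fell. The balance over all genes depends on the scaling: with library totals alone 116 genes rose and 228 fell in females without fracture, against 209 and 129 with TMM scaling, and 110 and 276 with fracture, against 170 and 145. In males it was 442 and 501 without fracture, against 564 and 326, and 303 and 338 with fracture, against 364 and 225. The pathway list was not counted under that scaling. In females the 6 were, in each of the 2 comparisons, the lysosomal proteases Ctss, Ctsl, Ctsb, Ctsd and Ctsh and the class II ligand Lag3. No gene of the list passed for fracture against no fracture in either state or table.

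Ctss, cathepsin S, which trims the invariant chain, averaged 16680 ± 828 CPM in repopulated and 10830 ± 1802 CPM in resident female libraries without fracture (SD, n = 3 and 4; log2 fold change 0.62 ± 0.09, adjusted p = 0.00711), and 14770 ± 758.8 and 9710 ± 356.8 CPM with fracture (SD, n = 4 each; 0.61 ± 0.09, 0.00431). In males Ctss averaged 21740 ± 1043 CPM in repopulated and 12730 ± 1702 CPM in resident libraries without fracture (SD, n = 2 and 3; 0.77 ± 0.10, 7.77e-05), and 18810 ± 1379 and 12770 ± 1075 CPM with fracture (SD, n = 7 and 5; 0.56 ± 0.07, 6.47e-05). Ctsb, Ctsd and Ctsh passed in all 4 of these comparisons with log2 fold changes from 0.37 to 1.12. Ctsl passed in both female comparisons (0.36 and 0.34) and in males without fracture (0.45), and had 0.25 ± 0.07 in males with fracture (adjusted p = 0.056).

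Lag3, an inhibitory receptor that binds class II molecules, rose in all 4 comparisons. It averaged 114 ± 10.3 CPM in repopulated and 65.3 ± 22.2 CPM in resident female libraries without fracture (SD, n = 3 and 4; 0.81 ± 0.20, adjusted p = 0.0465), and 120 ± 24.9 and 54.8 ± 2.38 CPM with fracture (SD, n = 4 each; 1.13 ± 0.19, 0.00911). In males it averaged 108 ± 36.1 CPM in repopulated and 57.6 ± 13.8 CPM in resident libraries without fracture (SD, n = 2 and 3; 0.90 ± 0.19, 0.00467), and 122 ± 13.7 and 64.1 ± 5.71 CPM with fracture (SD, n = 7 and 5; 0.93 ± 0.13, 0.000199). Of the interferon arm that drives class II transcription, Irf1 (0.87 ± 0.19) and Ifngr2 (0.31 ± 0.09) rose and Ifngr1 fell (-0.31 ± 0.09) in males without fracture. That comparison rests on 2 repopulated libraries. None of these genes passed in males with fracture or in either female comparison of repopulated and resident libraries.

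The other male calls were Ifi30, a lysosomal thiol reductase, at 1.04 ± 0.16 without fracture, the costimulatory receptor Cd40 at 3.53 ± 0.82 without and 2.29 ± 0.55 with fracture, and the costimulatory ligand Cd80 at -0.70 ± 0.15 with fracture. Cd40 was scarce, with 16.9 ± 3.17 CPM in repopulated and 1.46 ± 0.445 CPM in resident libraries without fracture (SD, n = 2 and 3). The RFX and NF-Y subunits that bind the promoter boxes did not pass in any of these comparisons, for example Rfx5 at 0.35 ± 0.18 in females with fracture (adjusted p = 0.431) and 0.01 ± 0.22 in males with fracture (0.992). The beta chain partner of H2-Oa, H2-Ob, had -0.11 ± 0.12 in females (adjusted p = 0.798) and -0.04 ± 0.10 in males (0.908) with fracture, and H2-DMb2 had -0.08 ± 0.15 (0.925) and 0.17 ± 0.21 (0.795).

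Class II genes are also abundant in dendritic cells, B cells and macrophages, whose markers were summed per library. In bulk libraries fewer cells of a type and less RNA per cell cannot be told apart. For monocytes and macrophages of circulating origin, 7 of 9 markers were listed, and their sum ran from 1265 to 2247 CPM in repopulated and from 558.7 to 990.2 CPM in resident female libraries without fracture, and from 1618 to 1939 and from 640.2 to 707.3 CPM with fracture. In males it ran from 966.2 to 1931 CPM in repopulated and from 351.5 to 439 CPM in resident libraries without fracture, and from 782.4 to 1837 and from 452.6 to 995.2 CPM with fracture. Lyz2, which microglia also express, made up most of this sum. Ccr2 and Ly6c2, the defining monocyte markers, were not among the listed genes and were not analysed here. Listing in females required at least 10 counts in at least 8 libraries. A transcript found only in the repopulated female groups of 3 and 4 libraries could not be listed. A marker that is not listed is therefore not shown to be absent.

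Single markers of these lists differed too. Pilra rose in all 4 comparisons, with log2 fold changes from 1.65 to 2.57. Clec12a had 7.20 ± 3.30 CPM in repopulated and 0.133 ± 0.177 CPM in resident female libraries with fracture (SD, n = 4 each). Listing required at least 10 counts in at least 8 female libraries. A gene so scarce in resident libraries was listed through repopulated ones where it is high, so no p-value is given for Clec12a. Ms4a7, a marker of macrophages at the borders, was also scarce in resident libraries. It had 23.0 ± 14.2 CPM in repopulated and 0.518 ± 0.446 CPM in resident female libraries with fracture (adjusted p = 0.0343). Of the other 3 border markers listed in females, Mrc1 (3.14 ± 1.03, adjusted p = 0.144) and Pf4 (0.94 ± 1.18, 0.854) had positive and Stab1 (-0.20 ± 0.19, 0.774) negative log2 fold changes there, and none passed. Stab1 made up most of the border marker sum, at 347 ± 85.8 CPM in repopulated and 398 ± 18.6 CPM in resident libraries (SD, n = 4 each). Of the dendritic markers 5 of 9 were listed in females and 3 of 9 in males, and their sum, mostly Itgax in repopulated libraries, ran from 133.2 to 157.5 CPM in repopulated and from 26.97 to 139.2 CPM in resident female libraries without fracture, and from 64.08 to 103.3 and from 43.12 to 47.92 CPM with fracture. In males it ran from 153.5 to 178.8 CPM in repopulated and from 36.44 to 48.32 CPM in resident libraries without fracture, and from 53.1 to 151.1 and from 42.07 to 57.46 CPM with fracture. Zbtb46, a transcription factor of classical dendritic cells, averaged at most 7.89 CPM in any group.

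The B cell sum, over 3 of 7 markers, was lower in repopulated libraries, at 343.2 to 376.3 CPM against 489.4 to 624.9 CPM in resident female libraries without fracture and 388.6 to 460.8 against 545.5 to 600.0 CPM with fracture. In males it was 312.4 to 339.7 CPM in repopulated and 471 to 543.1 CPM in resident libraries without fracture, and 331.9 to 450.7 and 429 to 528.5 CPM with fracture. The sum for border-associated macrophages, over 4 of 8 markers in females and 5 of 8 in males, ran from 222.6 to 305.4 CPM in repopulated and from 246.0 to 475.9 CPM in resident female libraries without fracture, and from 295.4 to 464.6 and from 382.4 to 418.8 CPM with fracture. In males it ran from 108.6 to 202 CPM in repopulated and from 200.8 to 218.4 CPM in resident libraries without fracture, and from 118.2 to 226.8 and from 180.5 to 251.9 CPM with fracture. Of 4 neutrophil markers Csf3r alone was listed, with 1083 to 1246 CPM in repopulated and 856.2 to 996.3 CPM in resident female libraries, and 447.4 to 600.5 and 346.4 to 453.9 CPM in male ones, and no T and NK cell marker was listed. S100a8, S100a9 and Ly6g were not listed, so Csf3r alone does not show whether neutrophils were present. No listed marker was at 0 in all libraries of a group. The part of other cells in the class II levels was not tested.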

How the data were processed

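The authors deposited whole-number estimated counts of transcripts, separately for females and males. The submitters' processing notes name cutadapt 3.4, Trim Galore 0.6.7, STAR 2.7.6a, RSEM 1.3.1, R 4.1.3, DESeq2 1.34.0 and GRCm38, with roles not given in the sources used here. A deposited column of the mean absolute deviation per row (another kind of value) was not used. Counts were summed by gene identifier. edgeR 4.0.16 fitted the 4 groups of each table together (TMM scaling, quasi-likelihood test, Benjamini-Hochberg adjustment over all genes, threshold 0.05); filterByExpr removed no gene. Log2 CPM used a prior count of 2. TPM was computed from GENCODE M21 lengths, which held 98.4% of transcript identifiers in each table. The fits were tested on simulated data. Samples sharing a replicate number were not treated as paired. DESeq2 1.42.0, other scalings, filters and single-library omissions were alternatives. The members, lists and tests were chosen with earlier results of these data known. Genes were named by rule: all members, every called gene of the pathway list with up to 6 others by role, the 10 genes most alike per table, and markers that moved. Depth limits precision, and counting error is only part of the spread. One called gene of the pathway list is not reported here by name.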

Additional observations from a re-analysis of the deposited data

Results flagged for a closer look

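In 35 sets, each 1 gene in 1 group of 4 to 7 libraries, 7 values stood far from the rest of their group by Dixon's test, which flags about 1 set in 20 by chance, and all 7 come from 2 libraries. The flagged genes varied together, up to r = 0.976 for H2-Aa and H2-Eb1 in males, so the 7 flags are not separate events. Groups of 2 or 3 libraries were not tested. Female resident without fracture replicate 3 was the highest of 4 for H2-Aa at 34.5 CPM, H2-Ab1 at 115 CPM and H2-Eb1 at 25.3 CPM. In that library the summed markers of circulating monocytes and macrophages had 990.2 CPM, against 752.4, 558.7 and 620.4 CPM in the other 3, and the dendritic markers 139.2 CPM, against 67.69, 26.97 and 51.05 CPM. The same library was the lowest of its group for microglial markers, at 29590 CPM against 32670, 38720 and 34240 CPM. It was also lowest for border-associated macrophage markers (246.0 CPM, against 407.8, 475.9 and 379.0) and B cell markers (489.4 CPM, against 560.2, 624.9 and 540.0). Csf3r was highest there, at 996.3 CPM against 934.5, 986.7 and 863.5 CPM. Male resident with fracture replicate 4 was the highest of 5 for H2-Aa at 57.5 CPM, H2-Ab1 at 141 CPM, H2-Eb1 at 42.0 CPM and Cd74 at 551 CPM. There the circulating markers had 995.2 CPM, against 452.6, 461.2, 627.9 and 683.8 CPM in the other 4, and the dendritic markers 57.46 CPM, against 52.71, 42.07, 48.63 and 48.03 CPM. Border-associated macrophage markers were lowest in that male library, at 180.5 CPM against 194.7, 212.0, 238.1 and 251.9 CPM. Its microglial (46870 CPM) and B cell (430.1 CPM) sums and Csf3r (381.7 CPM) lay within the range of the other 4. The part of these markers in the class II values was not tested.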

How the results depend on the processing

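H2-Aa, H2-Ab1, H2-Eb1, Cd74 and H2-Oa kept a positive sign and H2-DMb1 a negative one in repopulated against resident microglia under every alternative, except in the male fracture libraries of V99 to V110, where H2-Aa had -0.87, H2-Eb1 -0.68 and Cd74 -0.13; H2-DMa there had -0.080. Counts of calls moved more. For repopulated against resident, female genes called were, without fracture, 338 in the reported fit, 676 with DESeq2, 143 with a replicate block, 0 with only the compared groups and 51 to 612 with 1 library left out, and with fracture 315, 694, 184, 629 and 106 to 488. Members called in females were 0 to 4 without fracture and 0 to 3 with fracture when 1 library was left out; with fracture 2 with DESeq2, 0 with the replicate block and 5 with only the compared groups; and 2 and 4 without both high libraries, an alternative chosen after seeing the data. Male genes called without fracture were 890, and 414 to 949 with 1 library left out, with 1 to 6 members. Male genes called with fracture were 589, 293 with the replicate block, 39 in V64 to V69 and 43 in V99 to V110; members called were 2 with DESeq2 or library totals, 0 with the block or within either run of V numbers, and 0 to 3 with 1 library left out. For fracture, female genes called were 90 with DESeq2 and 86 with only the compared groups in repopulated libraries, and 4 with DESeq2, 1 without both high libraries and 0 to 1 with 1 library left out in resident ones; the female interaction had 1 with DESeq2 and 0 to 1. Male fracture counts were 58 with DESeq2, 56 with the block, 0 with only the compared groups, 2 with V range in the fit and 1 to 29 with 1 library left out in repopulated libraries, and 12, 2, 5 and, with 1 left out, 1 to 2 in resident ones; the male interaction had 49 with DESeq2, 3 at a mean count of 50, 57 with the block, 0 with V range and 0 to 14. The causes were not tested.

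Signs reversed as follows. With library totals alone, H2-DMa had -0.019 in females without fracture and -0.022 in males with fracture, and H2-Oa 0.028 for fracture in male repopulated libraries. Without both high female libraries, fracture in repopulated libraries gave 0.34 for H2-Ab1 and 0.94 for H2-Eb1, in resident ones 0.94 for H2-Aa, 0.26 for H2-Ab1 and 0.84 for H2-Eb1, and the interaction -0.08 for Cd74. With 1 library left out, fracture in female repopulated libraries ranged from -0.30 to 1.11 for H2-Aa, -0.35 to 0.34 for H2-Ab1, -0.43 to 0.94 for H2-Eb1 and -0.25 to 0.026 for H2-Oa. In female resident libraries it ranged from -0.84 to 0.94 for H2-Aa, -0.60 to 0.26 for H2-Ab1, -1.14 to 0.84 for H2-Eb1, -0.050 to 0.087 for H2-DMa and -0.058 to 0.24 for H2-Oa. The female interaction ranged from -0.87 to 1.61 for H2-Aa, -0.37 to 0.75 for H2-Ab1, -0.89 to 1.74 for H2-Eb1 and -0.36 to 0.60 for Cd74. In males fracture ranged from -0.096 to 0.32 for H2-DMa and -0.089 to 0.045 for H2-Oa in repopulated libraries, and from -0.018 to 0.63 for H2-Ab1, -0.075 to 0.12 for H2-DMa and -0.024 to 0.087 for H2-DMb1 in resident ones; H2-DMa ranged from -0.11 to 0.31 in the interaction, -0.0029 to 0.074 with fracture and -0.28 to 0.14 without.

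Equal replicate numbers gave no sign of pairing: their deviations correlated from -0.31 to 0.19 in females (3 of 21 pairs over 0.1) and from -0.09 to 0.05 in males (0 of 17). Unlike numbers gave 9 of 63 female and 0 of 84 male pairs over 0.1. Deviations from the means of such small groups cannot exclude pairing. With the replicate block H2-DMb1 in females with fracture had an adjusted p of 0.0598, Cd74 and H2-Oa in males without fracture 0.0669 and 0.0933, and H2-Oa in males with fracture 0.169, while H2-Aa (0.036) and H2-Eb1 (0.0431) passed in males without fracture. Depth limits H2-Aa and H2-Eb1 most, with as few as 34 and 33 counts in a library.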
